A study of Mus musculus with 12 samples.

Results

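mmu-miR-146a-5p, mmu-miR-146b-5p, mmu-miR-155-5p, and both arms of miR-21a (mmu-miR-21a-5p and mmu-miR-21a-3p; the prefix mmu for mouse is left out below) were examined in microglial exosomes after repetitive mild traumatic brain injury (rmTBI). These 5 miRNAs were chosen as inflammation-induced miRNAs linked to the transcription factor NF-kB, and each was matched exactly to its name on the arrays, where all 5 of the 5 were found among 1881 mouse miRNAs. The mice were male C57BL/6 of 12 weeks that received 4 closed-head impacts 48 h apart, and were killed at 3, 14, or 42 days after the last impact (DPI); sham mice went through the procedure without an impact and give a single control group for all time points. Brain tissue was dissociated with papain, exosomes (small membrane vesicles released by cells) were precipitated, and those carrying CD11b, a surface protein of microglia and other myeloid cells, were captured with an antibody. Their RNA was labeled with Cy3 and hybridized to 12 Agilent arrays for miRNAs in a single color, with 3 arrays in each group. The labels number the 3 samples of a group but do not say which animals or pools they came from, so the p-values measure only the spread between these samples, which may be technical.

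NF-kB is held in the cytoplasm of resting cells and enters the nucleus after signals such as those of Toll-like receptors and cytokines. miR-146a is transcribed in response to NF-kB and represses Irak1 and Traf6, adaptors of Toll-like receptor signaling, in a negative feedback loop, and miR-146b is its paralog from another locus. miR-155 is processed from a transcript that activated microglia and macrophages induce, and it represses the signaling inhibitors Socs1 and Inpp5d (SHIP1). miR-21 is induced by NF-kB, AP-1, and STAT3 and represses Pdcd4. Its 5p strand is the guide strand that is commonly loaded, and its 3p strand comes from the opposite arm of the same hairpin.

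The mature sequences, taken from RefSeq for mouse build GRCm38.p6 and written 5′ to 3′ with the seed (bases 2 to 8) in capitals, show which members could share targets.
miR-146a-5p: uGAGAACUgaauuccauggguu
miR-146b-5p: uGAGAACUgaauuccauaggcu
miR-155-5p: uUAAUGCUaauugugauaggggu
miR-21a-5p: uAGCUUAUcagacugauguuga
miR-21a-3p: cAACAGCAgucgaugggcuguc
The miR-146 pair shared its seed, and of the 1679 mouse mature miRNAs in that table these 2 alone carried it. They were identical over the first 17 bases and differed at 2 positions counted from the 5′ end, G18A and U21C in miR-146b-5p. The seeds of miR-155-5p and miR-21a-3p were carried by no other mature miRNA in the table, and that of miR-21a-5p also by miR-21c. miR-146a-5p lies at chr11:43374435-43374456 on the minus strand, and no other gene spanned its hairpin. miR-146b-5p lies at chr19:46342790-46342811 on the plus strand within the long noncoding RNA gene Gm36493, and miR-155-5p at chr16:84714143-84714165 on the plus strand within its noncoding host gene Mir155hg. Both miR-21a arms lie on the minus strand within the bounds of the protein-coding gene Vmp1, the 5p arm at chr11:86584120-86584141 and the 3p arm at chr11:86584082-86584103. Whether these positions are exonic or intronic in the host genes was not looked up here.

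On the arrays miR-21a-5p was the only member detected on all 12 arrays, and miR-21a-3p was below background on all 12. For detection on an array, at least 1 probe of the miRNA had to have over 0.5 of its kept spots well above background. miR-146b-5p was detected on 1 of 3 sham arrays (replicate 3) and on 3 of 3 arrays at 3, 14, and 42 DPI. miR-146a-5p was below background on 3 of 3 sham arrays and was detected after injury on replicate 2 of 3 DPI, on replicates 2 and 3 of 14 DPI, and on 3 of 3 arrays of 42 DPI. miR-155-5p was below background on all arrays of sham, 3 DPI, and 14 DPI and was detected on 1 of 3 arrays at 42 DPI (replicate 1). Thus 3 of the 5 members, miR-146a-5p, miR-146b-5p, and miR-21a-5p, were among the 486 miRNAs that were tested because some group had them detected on each of its arrays. miR-146a-5p passed this filter only through its arrays of 42 DPI, so that its detection there, and any difference of that group from the others, is partly fixed by the choice and is given below as a description only.

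**Figure D1:**
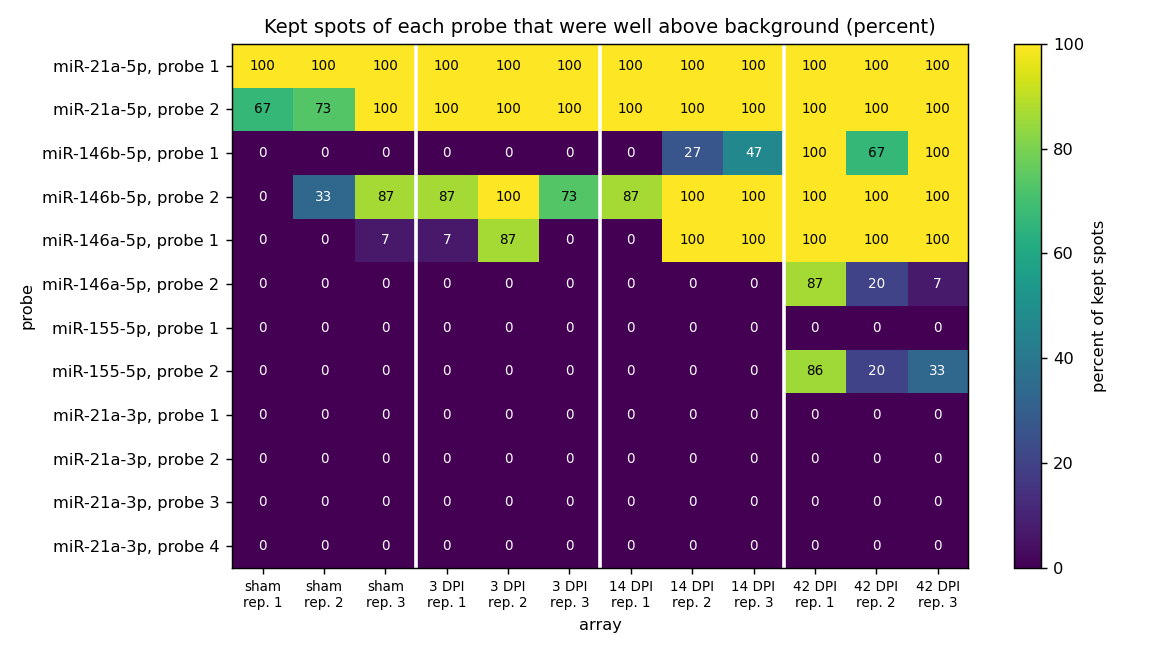
Share of the kept spots of each probe of the 5 members (rows, probes numbered within a miRNA) that were well above background, in percent, on each of the 12 arrays (columns, by group and replicate). Both probes of miR-21a-5p were above background on every array, and the 4 probes of miR-21a-3p were at 0 on every array. The brighter probe of miR-146a-5p was mostly above background on replicate 2 of 3 DPI, replicates 2 and 3 of 14 DPI, and all arrays of 42 DPI. Spots of miR-155-5p above background were found on the arrays of 42 DPI alone.

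The arrays themselves grew brighter over the groups, and this stood beside every detection count above. The 75th percentile of intensity among the 230 miRNAs detected on all arrays was 217 to 348 in sham and 401 to 619 at 3 DPI, rose to 588 to 1173 by 14 DPI, and reached 1385 to 2936 by 42 DPI, and the number of detected miRNAs rose from 243 to 285 in sham to 490 to 579 at 42 DPI. The part of array brightness in the detection of the members was not tested. All levels below are therefore log2 scaled signals, in which each array was divided by its own 75th percentile (0 on this scale) and values under a common floor of -5.06 were set to that floor. Slide 1 held the 3 sham arrays and replicate 1 of 3 DPI, and slide 2 the other 8 arrays, so that slide cannot be told apart from injury at 14 and 42 DPI. Of the microglia and myeloid markers, which are defined by miR-142a and miR-223, miR-142a-5p was below background on all arrays, miR-142a-3p was detected on no array of sham or 3 DPI but on 2 of 3 arrays of 14 DPI and all of 42 DPI, and miR-223-3p on 1 of 3 sham arrays and on all arrays after injury. All 4 neuron markers and all 3 oligodendrocyte markers were detected on all 12 arrays.

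miR-21a-5p was higher at 42 DPI than in sham and than at 3 DPI. Its log2 scaled signal was -0.91, -0.42, and -0.31 on the sham arrays, -0.26, -0.37, and -1.04 at 3 DPI, -0.72, 0.19, and 0.15 at 14 DPI, and 0.42, 0.28, and 0.25 at 42 DPI (replicates 1, 2, and 3). All 3 arrays of 42 DPI lay above all arrays of the other groups, while those of sham, 3 DPI, and 14 DPI overlapped. Of the 486 miRNAs tested, 31.3% lay so above sham, 28.6% above 3 DPI, and 1.85% above 14 DPI. The group means were -0.55 ± 0.32 in sham, -0.56 ± 0.42 at 3 DPI, -0.13 ± 0.51 at 14 DPI, and 0.32 ± 0.09 at 42 DPI (SD, n = 3 each). Ordered by mean, the groups ran from 3 DPI and sham through 14 DPI to 42 DPI, and no neighbors in this order differed by the test, although the arrays of 42 DPI lay above those of 14 DPI. The rise from sham to 42 DPI was 1.82-fold (log2 0.86, 95% interval 0.20 to 1.52, limma adjusted p = 0.0493), and that from 3 to 42 DPI was 1.83-fold (log2 0.87, 95% interval 0.21 to 1.53, adjusted p = 0.0431).

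**Figure D2:**
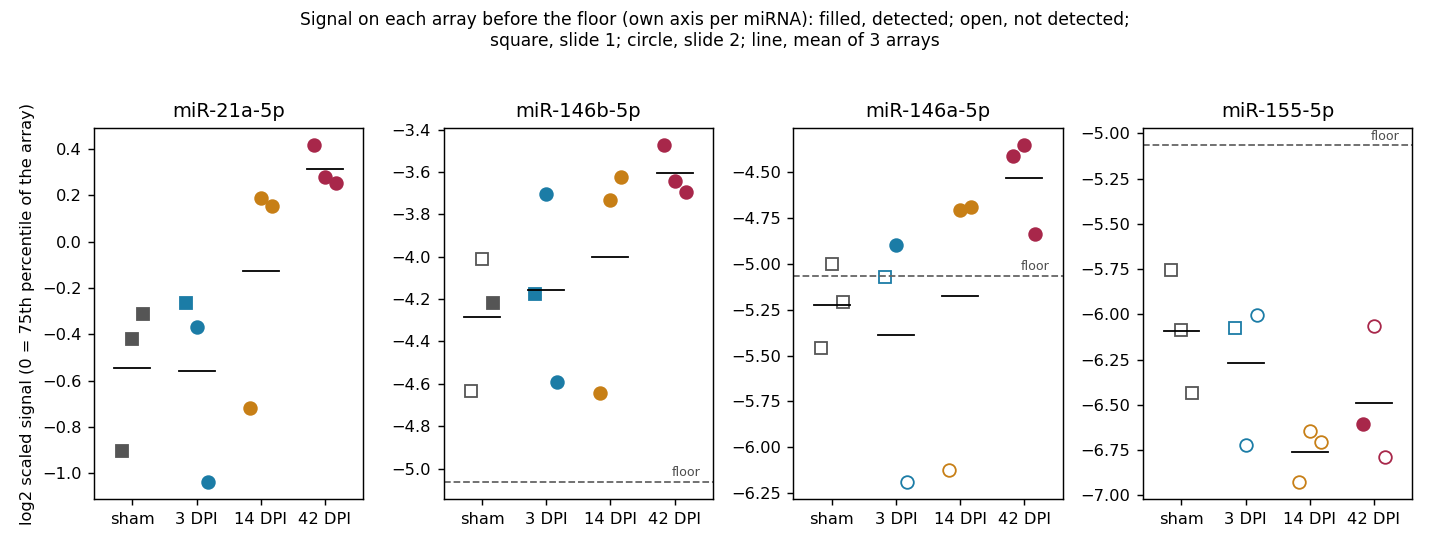
Log2 scaled signal before the floor on each of the 12 arrays (3 per group) for the 4 members other than miR-21a-3p, each on its own axis. Filled symbols mark arrays on which the miRNA was detected, and open symbols those on which it was not. Squares stand for slide 1, circles for slide 2, and the line for the mean of 3 arrays. The 3 arrays of 42 DPI lay above the 3 sham arrays for miR-21a-5p, miR-146b-5p, and miR-146a-5p but not for miR-155-5p. Replicate 3 of 3 DPI and replicate 1 of 14 DPI were the lowest of their groups for miR-21a-5p, miR-146b-5p, and miR-146a-5p.

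Before scaling, the intensity of miR-21a-5p was 152 to 280 in sham and 220 to 479 at 3 DPI, 358 to 1337 by 14 DPI, and 1679 to 3923 by 42 DPI, a range that includes the rise in array brightness. Its 2 probes moved alike. The change from sham to 42 DPI was 0.83 on the log2 scale for one probe and 1.09 for the other, and on both probes all 3 arrays of 42 DPI lay above the 3 sham arrays. The coefficient of variation among the printed spots of a probe on an array ran from 2.73% to 22.7% and was highest on the sham arrays.

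The call of miR-21a-5p at 42 DPI was close to its threshold. Leaving out any array other than replicate 3 of 3 DPI or replicate 1 of 14 DPI raised the adjusted p to between 0.0547 and 0.177, and in the fit that added replicate number as a blocking factor it was 0.071 against sham and 0.0652 against 3 DPI. Replicate 1 of 3 DPI is the only link between the slides, and in a fit blocked by slide the change against sham was 1.30 (adjusted p = 0.226), and within slide 2 the change from 3 to 42 DPI was 1.02 (adjusted p = 0.0972).

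Among the 229 other miRNAs detected on all 12 arrays, those whose profile over the arrays was nearest to that of miR-21a-5p were miR-487b-3p, miR-30e-5p, and miR-101a-3p. Their root mean square differences from it, after each profile was centered on its mean, were 0.07, 0.10, and 0.11 on the log2 scale, against a median of 0.43 over all 229. The arrays, their scaling, and their slides are shared by all these profiles. From sham to 42 DPI, miR-487b-3p changed by 0.72 (adjusted p = 0.0855), miR-30e-5p by 0.93 (adjusted p = 0.0217), and miR-101a-3p by 0.85 (adjusted p = 0.0412).

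miR-146a-5p lay in the lowest part of the measured range. Its intensity was 6.48, 6.79, and 9.43 on the sham arrays, 11.9, 20.8, and 6.18 at 3 DPI, 8.43, 45.0, and 43.3 at 14 DPI, and 138, 67.9, and 65.1 at 42 DPI. On the log2 scaled signal with the floor, 2 of 3 arrays in sham, 2 of 3 at 3 DPI, and 1 of 3 at 14 DPI sat at the floor, and the 3 arrays of 42 DPI read -4.41, -4.35, and -4.83. The group means were -5.04 ± 0.04 in sham, -5.01 ± 0.10 at 3 DPI, -4.82 ± 0.21 at 14 DPI, and -4.53 ± 0.26 at 42 DPI (SD, n = 3 each). The arrays of 42 DPI were above all sham and all 3 DPI arrays (as for 31.3% and 28.6% of all miRNAs tested), and those of the other groups overlapped. The fitted difference at 42 DPI was 0.51 from sham (95% interval 0.19 to 0.83, limma adjusted p = 0.0255) and 0.48 from 3 DPI (adjusted p = 0.0341). These values are no test of a rise, because the miRNA entered the fit only through the arrays of 42 DPI.

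This difference could not be turned into a fold change. The lowest signals that counted as detected on the sham arrays averaged -4.18, which is above the mean of -4.53 that miR-146a-5p reached at 42 DPI, and the bound on the fold was therefore under 1. The size of the difference also followed the floor, from 0.00 at 2 times the floor to 0.69 (adjusted p = 0.181) at 0.5 times the floor. The adjusted p passed 0.05 without any 1 of the 3 sham arrays and without replicate 1 or 2 of 42 DPI, with values between 0.0553 and 0.0933, and with slide as a block (0.43, adjusted p = 0.343). For the difference from 3 DPI, the value within slide 2 was 0.45 (adjusted p = 0.136). Only 1 of its 2 probes carried the signal. That probe was above background on 6 arrays and the other on 1, replicate 1 of 42 DPI.

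miR-146b-5p, which shares the seed of miR-146a-5p, was higher on all 3 arrays of 42 DPI than on any sham array, but its change did not pass the test. It was below background on replicates 1 and 2 of sham, so that this order and the change rest partly on values below background. On replicate 2 of sham the lowest signal that counted as detected was -3.66, above the -3.69 of replicate 3 of 42 DPI. miR-146b-5p entered the fit through the groups after injury alone. Its log2 scaled signal was -4.63, -4.01, and -4.22 in sham, -4.18, -3.70, and -4.59 at 3 DPI, -4.65, -3.73, and -3.62 at 14 DPI, and -3.47, -3.64, and -3.69 at 42 DPI. The arrays of 3 DPI lay inside or above the sham range, and those of 14 DPI passed it on both sides. The group means were -4.29 ± 0.32 in sham, -4.16 ± 0.44 at 3 DPI, -4.00 ± 0.56 at 14 DPI, and -3.60 ± 0.12 at 42 DPI (SD, n = 3 each). The change from sham to 42 DPI was 0.68 on the log2 scale (95% interval -0.02 to 1.39, adjusted p = 0.116), and the interval holds both 0 and the change of miR-21a-5p.

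A single array decided whether miR-146b-5p was called, since without replicate 1 of 14 DPI the adjusted p was 0.0409 at the same change. In a fit of only the sham and 42 DPI arrays it was 0.0342. With slide as a block the change was 0.65 (adjusted p = 0.468). The brighter of its 2 probes was above background on 10 arrays and the other on 3, all of 42 DPI. The brighter probe changed by 0.63 from sham to 42 DPI, and no change is given for the other, which was above background on no sham array. In the total signal that the scanner software computes per miRNA, the direction was turned (-0.81, adjusted p = 0.469).

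At 3 DPI, limma called 0 of the 3 tested members against sham, where 0.0% of the 486 miRNAs tested were called and 11 had an unadjusted p under 0.05, none of them a member. The changes were -0.01 for miR-21a-5p (95% interval -0.67 to 0.65), 0.13 for miR-146b-5p (-0.58 to 0.84), and 0.03 for miR-146a-5p (-0.29 to 0.36), each with an adjusted p of 1. At 14 DPI it called 0 of 3, where 3.7% of all miRNAs tested were called. The changes there were 0.42 for miR-21a-5p (95% interval -0.24 to 1.08, adjusted p = 0.434), 0.29 for miR-146b-5p (-0.42 to 0.99, adjusted p = 0.663), and 0.22 for miR-146a-5p (-0.10 to 0.54, adjusted p = 0.393). At 42 DPI miR-21a-5p was called higher and miR-146b-5p was not called, where 34.2% of all miRNAs tested were called, 13.6% higher and 20.6% lower. The adjusted p of miR-146a-5p was also under the threshold but is not counted, for the reason given above. miR-21a-5p and miR-146b-5p lay above sham on all arrays at 42 DPI, which held for 31.3% of the miRNAs tested. For miR-146b-5p this order includes replicates 1 and 2 of sham, on which it was below background. The 3 comparisons share the sham arrays.

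**Figure D3:**
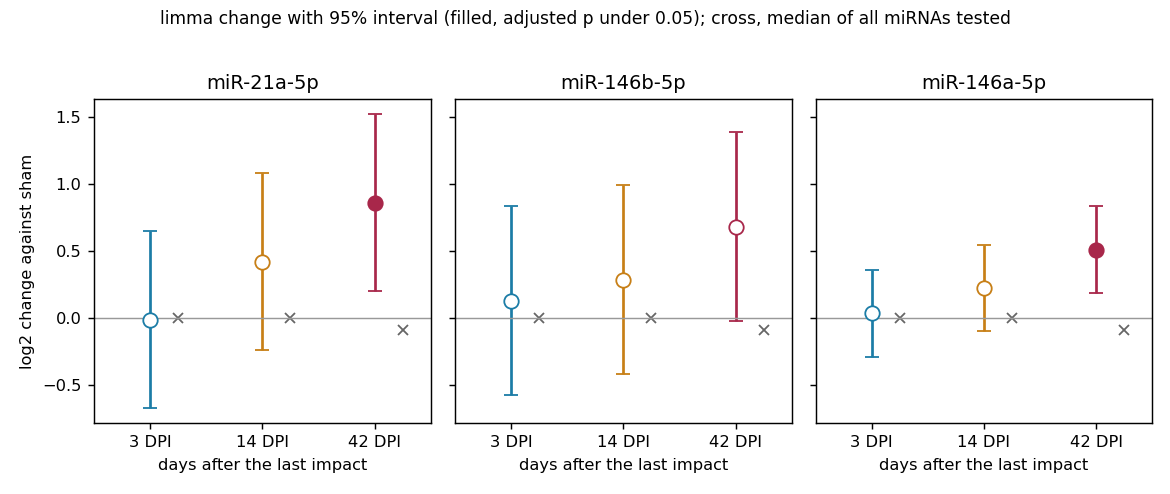
Log2 change against sham with its 95% interval from limma for the 3 tested members (panels) at 3, 14, and 42 DPI (n = 3 arrays per group), filled where the adjusted p was under 0.05, with a cross at the median change of all 486 miRNAs tested. The intervals at 3 and 14 DPI hold 0 for all 3 members, and at 42 DPI those of miR-21a-5p and miR-146a-5p lie above 0. That of miR-146a-5p is a description only, since it entered the fit only through its arrays of 42 DPI.

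Between time points, limma called 0 of the 3 members from 3 to 14 DPI (0.617% of all miRNAs tested) and, from 3 to 42 DPI (38.3% of all), miR-21a-5p but not miR-146b-5p, with miR-146a-5p again not counted. From 14 to 42 DPI it called 0 of 3, where 0.0% of all miRNAs were called and 54 had an unadjusted p under 0.05, none of them a member. From 14 to 42 DPI, all of these arrays being on slide 2, the changes were 0.44 for miR-21a-5p, 0.40 for miR-146b-5p, and 0.29 for miR-146a-5p.

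miR-21a-5p and miR-146b-5p had the same lowest arrays after injury up to 14 DPI. Replicate 3 of 3 DPI and replicate 1 of 14 DPI had the lowest values of their groups for both. Before the floor, miR-146a-5p was also lowest on these arrays (-6.19 and -6.12, both below background). Without replicate 1 of 14 DPI, the share of all miRNAs called from sham to 14 DPI went from 3.7% to 33.3%. How many of all miRNAs were lowest on these arrays was not counted. A difference between 2 miRNAs of an array does not depend on how the array was scaled. Taken within each array and set to a mean of 0 in sham, the signal of miR-146b-5p relative to miR-21a-5p was 0.14 ± 0.29 at 3 DPI, -0.13 ± 0.09 at 14 DPI, and -0.18 ± 0.03 at 42 DPI, beside a spread of 0.16 in sham (SD, n = 3 each), and stayed between -0.20 and 0.41 on all arrays. miR-146b-5p was below background on 2 of the 3 sham arrays behind this comparison. The within-array values ran from -0.20 to -0.15 at 42 DPI and from -0.16 to 0.15 in sham, on a log2 scale on which miR-21a-5p itself had moved by 0.86. These differences were not tested, because the rule asked for both miRNAs to be detected on each array of both groups, and in sham that held for miR-21a-5p alone.

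miR-155-5p gave signals near the limit of the arrays. Its intensity was 5.27, 3.20, and 4.03 on the sham arrays, 5.94, 5.86, and 7.02 at 3 DPI, 4.83, 11.7, and 10.7 at 14 DPI, and 30.1, 20.7, and 16.8 at 42 DPI. Each array of 42 DPI was thus brighter than every other array at the probes of miR-155-5p, but after division by the 75th percentile of the array all 12 values fell under the floor. Values under the floor have no order, and no change can be given. At its brighter probe 85.7%, 20.0%, and 33.3% of the kept spots of the arrays of 42 DPI were well above background, and 0.0% on the other 9 arrays, and its second probe had none on any array. The detection call of the scanner software, which is made per miRNA, was positive on 3 of 3 arrays of 42 DPI and on 0 of the other 9. Neither call separates a higher share of miR-155-5p in the RNA from a brighter array, and this was not tested.

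miR-21a-3p, the opposite arm of the hairpin that gives miR-21a-5p, had 0 spots above background at its 4 probes on all 12 arrays. Its background-corrected intensity summed over probes ran from -10.6 to 0.18. The other strands miR-146a-3p, miR-146b-3p, and miR-155-3p and the paralogs miR-21b and miR-21c were also below background on all 12 arrays by both detection calls. miR-21c carries the seed of miR-21a-5p and differs from it at 5 of its 21 bases, all after base 15. The signal with that seed was therefore seen at the probes of miR-21a-5p only. For the miR-146 pair, whether the probes of one member also bind the other, which differs in 2 bases, was not tested.

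Of 12 other miRNAs linked to NF-kB signaling by background knowledge, 10 were tested, and miR-147-3p and miR-187-3p were below background on all 12 arrays. At 3 and 14 DPI 0 of the 10 were called against sham, beside 0.0% and 3.7% of all miRNAs tested. At 42 DPI 2 were called higher and 1 lower, 3 of 10 beside 34.2% of all miRNAs tested, and the median change of the 10 was 0.19, beside -0.09 over all miRNAs tested. miR-27b-3p rose by 1.02 (adjusted p = 0.0141), from -2.02 ± 0.31 in sham to -0.998 ± 0.025 at 42 DPI. miR-125b-5p, which represses the cytokine Tnf, rose by 0.46 (adjusted p = 0.0446), from 3.19 ± 0.16 to 3.65 ± 0.02. miR-125a-5p, its paralog with the same seed, fell by 0.73 (adjusted p = 0.00996), from 1.21 ± 0.24 to 0.48 ± 0.08, and this fall became a rise of 0.05 when the percentile was taken over all miRNAs and of 2.09 without scaling between arrays, where the medians of all miRNAs tested were 0.46 and 1.76. From 3 to 42 DPI the list had 1 higher and 1 lower, miR-27b-3p (0.84) and miR-125a-5p (-0.75). Of all miRNAs tested, 14.2% were called higher and 24.1% lower in that comparison. The remaining 7 tested miRNAs changed by -0.40 (miR-132-3p) to 0.81 (miR-9-5p) from sham to 42 DPI, none with an adjusted p under 0.05. miR-223-3p, which is enriched in myeloid cells, changed by -0.13 (adjusted p = 0.493).

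**Figure D4:**
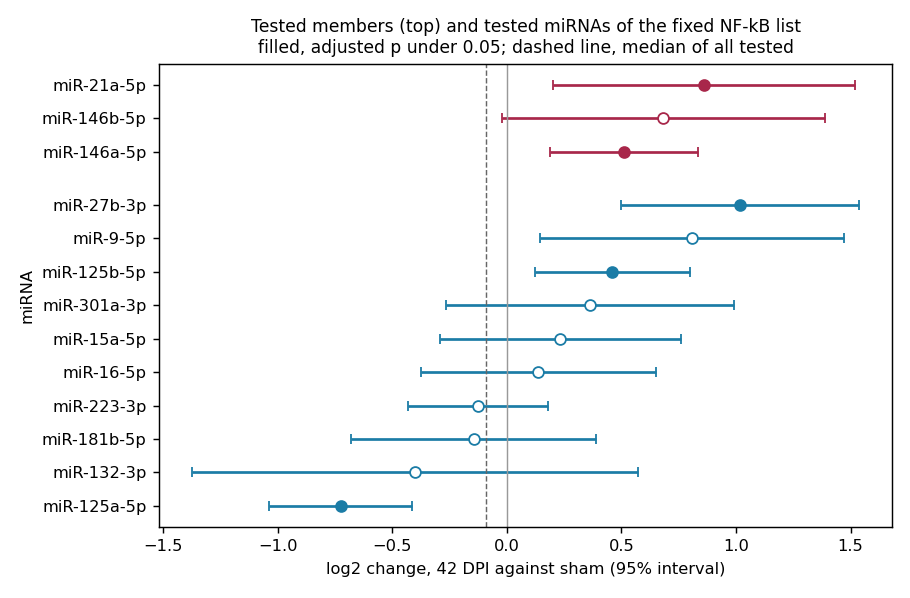
Log2 change from sham to 42 DPI with its 95% interval from limma for the 3 tested members (top) and the 10 tested miRNAs of the list of 12 linked to NF-kB (n = 3 arrays per group), filled where the adjusted p was under 0.05, with a dashed line at the median of all 486 miRNAs tested (-0.09). The changes of the list ran from -0.73 (miR-125a-5p) to 1.02 (miR-27b-3p) and those of the members from 0.51 to 0.86. The value of miR-146a-5p (0.51) is a description only, since it entered the fit only through its arrays of 42 DPI.

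Markers of other cell types moved at 42 DPI as well. Against sham, 2 of 3 oligodendrocyte and 2 of 4 neuron markers were called higher, beside 13.6% of all miRNAs tested. Of the oligodendrocyte markers, miR-219a-5p rose by 1.20 (adjusted p = 0.0164) and miR-219a-2-3p by 1.23 (adjusted p = 0.00996) on the log2 scale, although the latter read -0.09 with normexp background correction, where the median of all miRNAs tested was -1.67. Of the neuron markers, miR-128-3p rose by 1.05 (adjusted p = 0.0217) and miR-137-3p by 0.59 (adjusted p = 0.0152). With slide as a block miR-219a-5p changed by 0.42 (adjusted p = 0.537), and limma called 0.0% of all miRNAs tested there. The log2 of the summed scaled signal of the 4 neuron markers ran from 3.18 to 3.50 in sham and from 4.07 to 4.36 at 42 DPI, and that of the 3 oligodendrocyte markers from 0.85 to 1.33 and from 2.04 to 2.15. The microglia and myeloid sum ran from -3.49 to -3.04 in sham and from -3.24 to -2.97 at 42 DPI, and of its members miR-142a-3p differed by 0.46 (adjusted p = 0.0498). That value was -1.61 with normexp. It is a description only, since miR-142a-3p entered the fit only through its arrays of 42 DPI and was below background on all sham arrays. Of the erythrocyte markers miR-144-3p was below background on all arrays, and miR-451a, detected on all arrays of no group, was not tested. miR-486a-5p read lower at 42 DPI, a direction that turned with the 75th percentile over all miRNAs, without scaling, and in the table of processed values. That value too is a description only. miR-486a-5p was below background on all sham arrays and entered the fit only through its arrays of 42 DPI, where its mean of -5.06 was near the floor. The 2 endothelial markers were not called. The part of these shifts in the rise of miR-21a-5p was not tested, and as these are bulk samples, fewer vesicles from a cell type and less of a miRNA per vesicle cannot be told apart.

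The change of the members at 42 DPI depended on how the arrays were brought to one scale. Without scaling between arrays the median of all miRNAs tested moved to 1.76, and relative to that median miR-21a-5p was higher by 1.92, miR-146b-5p by 1.19, and miR-146a-5p by 0.26. With normexp background correction, which added an offset of 50 before the scaling, the median moved to -1.67 and 88.3% of all miRNAs tested were called. There miR-21a-5p changed by 0.69 (adjusted p = 0.0145), while miR-146b-5p (-1.24, adjusted p = 1.66e-05) and miR-146a-5p (-1.64, adjusted p = 9.32e-06) read lower. Relative to the median these 3 were 2.36, 0.43, and 0.03 higher. The sham intensities of miR-146b-5p (11.5 to 18.7) and miR-146a-5p (6.48 to 9.43) were under the offset, so that their sign there is partly fixed by the setting. In the processed table that the authors deposited, whose scaling is not stated, the median was 0.44, and miR-21a-5p changed by 1.02 (adjusted p = 0.023), miR-146b-5p by 0.77 (adjusted p = 0.0627), and miR-146a-5p by 3.29 (adjusted p = 5.72e-07). In that table replicate 3 of sham for miR-146a-5p and replicate 1 of sham for miR-146b-5p equal the mean of the other 2 sham values. The p-values of this pair there do not measure the spread of 3 samples. miR-21a-5p was the member whose direction at 42 DPI was the same in all settings run.

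**Figure D5:**
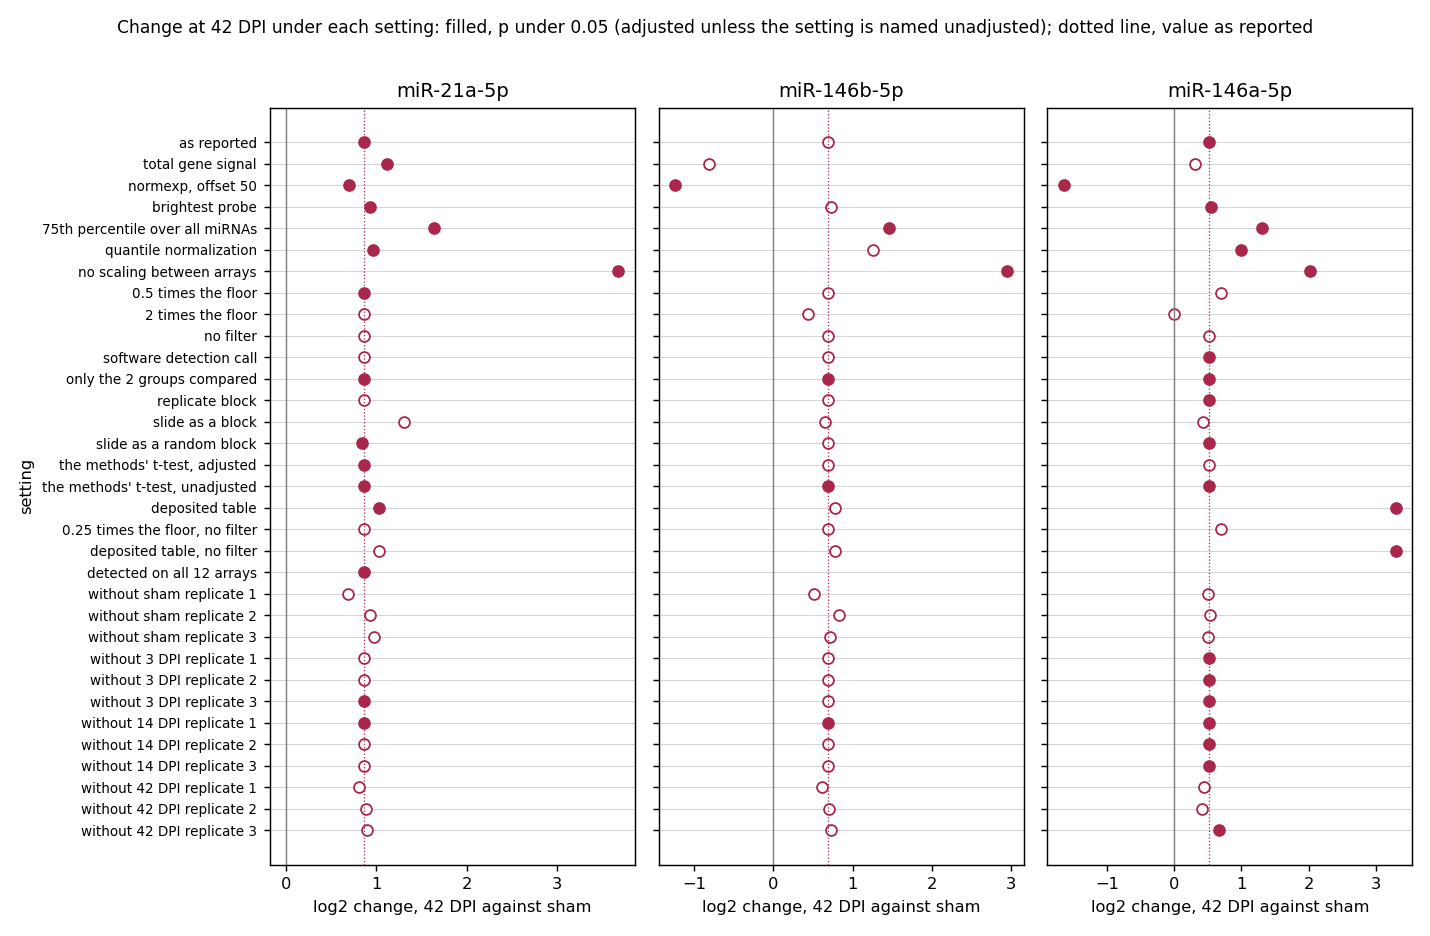
Log2 change from sham to 42 DPI of the 3 tested members (panels, each with its own axis) in the reported fit and under each other setting (rows), filled where p was under 0.05 (adjusted unless the setting is named unadjusted), with a dotted line at the reported value. miR-21a-5p lay above 0 in every setting, miR-146b-5p below 0 with the total gene signal and with normexp, and miR-146a-5p below 0 with normexp and at 0 with 2 times the floor.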

How the data were processed

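Exosomes captured from sham brains and from brains taken at 3, 14, and 42 DPI were measured on 12 Agilent miRNA arrays, 3 per group. Per the file headers, the authors deposited scanner output of Agilent Feature Extraction 10.7.1.1, in which each spot has a linear intensity from which background was subtracted, with no normalization between arrays. A table of log2 values was deposited too, whose scaling is not stated (median of each column -3.32). It was used only as an alternative. For miR-146a-5p, miR-146b-5p, and miR-155-5p some of its values equal the mean of the other 2 values of the group. For these miRNAs the p-values from that table therefore do not measure the spread of 3 samples.

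Control spots and outlier spots were left out, replicate spots were averaged per probe, and probe means were added up per miRNA. These sums were divided, array by array, by the 75th percentile among 230 miRNAs found on every array, floored at -5.06 (the median over arrays of the 0.01 quantile among detected miRNAs), and put on the log2 scale. The 486 miRNAs that some group had on each of its arrays entered 1 fit over 12 arrays with limma 3.58.1 (R 4.3.3), two-sided, with Benjamini-Hochberg adjustment over all 486 and calls at an adjusted p under 0.05. Fold changes are on the log2 scale with the floor. Tables used pandas 2.3.3 and NumPy 2.4.6, and plots matplotlib 3.10.9, in Python 3.11.15. The fit was tested on simulated data. The number of arrays limits the precision, and no spot was saturated.

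The miRNAs named are the 5 members, their other strands and paralogs, a list of 12 other miRNAs linked to NF-kB with values for those called, markers of cell types, and the 3 miRNAs nearest in profile to each member detected on all arrays. Members and lists were written from general knowledge, with earlier results of these data known. Deviations of same-numbered sham and 14 DPI arrays ran together (correlations across miRNAs of 0.83, 0.44, and 0.75), and no other pair of groups did so for all 3 numbers; this pairing comes from the correlations alone. Alternatives were other signals, background corrections, scalings, floors, filters, detection calls, and models, the methods' t-test, the table of processed values, and fits without 1 of the arrays. Added after seeing the data were 0.25 times the floor without a filter, the table of processed values without a filter, and replicate 1 of 3 DPI against sham within slide 1. The authors' qRT-PCR and functional experiments were not analysed here.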

Additional observations from a re-analysis of the deposited data

Results flagged for a closer look

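The change of miR-21a-5p from sham differed between time points. It was larger at 42 DPI than at 3 DPI by 0.87 on the log2 scale, the difference itself passing the limma test (adjusted p = 0.0431), with all 3 arrays of 42 DPI above all 3 of 3 DPI. Of all miRNAs tested, 38.3% were called in that comparison, and 28.6% had all arrays of 42 DPI above those of 3 DPI. The same comparison of time points stood out for miR-146a-5p, with a difference of 0.48 (adjusted p = 0.0341), of which 2 of 3 values at 3 DPI were at the floor. miR-146a-5p was tested only because it was detected on the 3 arrays of 42 DPI, so this difference is partly fixed by the filter.

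miR-155-5p was left out of the comparisons between groups because no group had it detected on each of its arrays. The detection call of the scanner software was nevertheless positive on 3 of 3 arrays of 42 DPI, against 0 of 3 sham arrays, the arrays of 42 DPI being also the brightest overall.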

How the results depend on the processing

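Most values of the members kept their direction, while the calls at 42 DPI depended on the setting. Of the 5 members, 2 had an adjusted p under 0.05 from sham to 42 DPI, a count that includes miR-146a-5p. It was 3 with normexp (2 of them lower, 88.3% of all miRNAs called), without scaling (79.2%), and with the 75th percentile among all miRNAs (45.9%). It was also 3 with only the 2 groups compared (53.9%) and by the unadjusted t-test (55.6%). A count of 1 came with the total gene signal (36.4%), 0.5 times the floor (44.4%), the filter of detection on all 12 arrays (51.3%), and the software detection call (27.4%). The same held for the replicate block (29.0%), the adjusted t-test of the methods (43.6%), and the processed table without a filter (13.7%). It was 0 with 2 times the floor (17.9%) and without a filter (0.957%, or 8.35% with 0.25 times the floor). With slide as a block it was 0 too, where limma called 0.0% of all miRNAs and 104 had an unadjusted p under 0.05. When 1 array was left out it was 0 to 3 (9.47% to 51.2% of all). At 3 DPI it was 1 in the processed table, with (19.5% of all) or without a filter (7.81%). At 14 DPI it was 2 with normexp (both lower, 76.1% of all called) and without scaling (61.9% of all). There it was 1 in the processed table (29.4% of all) and 2 in that table without a filter (miR-146a-5p and miR-155-5p, 10.2% of all). From 3 to 42 DPI it was 3 with normexp (miR-146a-5p and miR-146b-5p lower, 85.2% of all), without scaling (60.7%), on the percentile among all miRNAs (54.1%), and in the processed table (58.8%). It was 0 with the total gene signal (28.6%), 2 times the floor (13.0%), slide as a block (19.3%), slide 2 alone (0.0%), or the adjusted t-test (34.0%). Without a filter it was 0 as well (0.0%, or 0.319% with 0.25 times the floor). A count of 1 came with 0.5 times the floor (46.1%), the filter of detection on all 12 arrays (51.3%), and the software call (29.9%). The same held for only the 2 groups compared (43.6%), the replicate block (28.2%), and the processed table without a filter (10.5%). When 1 array was left out it was 0 to 2 (0.0% to 52.5% of all). From 14 to 42 DPI it was 3 without scaling (29.8% of all) and 1 with normexp (miR-146a-5p, lower, 60.5%) or in the processed table (3.29%). From 3 to 14 DPI it was 1 in that table without a filter (6.54% of all).

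miR-21a-5p from sham to 42 DPI lost its call at 0.86 with 2 times the floor (adjusted p = 0.0693), no filter (0.225), the software call (0.0572), the replicate block (0.071), and 0.25 times the floor without a filter (0.137), at 1.30 with slide as a block, and at 1.02 in the processed table without a filter (0.0691), and with 1 array left out the change was 0.68 to 0.98. At 14 DPI it was called without scaling (2.14), with 0.24 to 0.72 with 1 array left out. At 3 DPI the sign of its change of -0.01 turned with the total gene signal (0.14), without scaling (0.78), with slide as a block and with replicate 1 of 3 DPI alone on slide 1 (0.28), and ran from -0.19 to 0.23 with 1 array left out.

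miR-146a-5p at 42 DPI lost its call with the total gene signal (0.31), 0.5 times (0.69) and 2 times the floor (0.00), no filter and the adjusted t-test (0.51), slide as a block (0.43), and 0.25 times the floor without a filter (0.69), reversed with normexp (-1.64), and was 0.42 to 0.66 with 1 array left out. At 14 DPI it reversed with normexp (-1.11) and was called in the processed table (2.13), whose value for replicate 1 of 14 DPI is the mean of replicates 2 and 3. At 3 DPI it was called in that table (1.42), reversed with normexp (-0.52), 0.5 times the floor (-0.12), 0.25 times the floor (-0.16), and slide as a block or slide 1 alone (-0.022), and was -0.022 to 0.063 with 1 array left out. With normexp its changes between time points also reversed (-0.59, -0.53, and -1.12 for 3 to 14, 14 to 42, and 3 to 42 DPI).

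miR-146b-5p at 42 DPI was called with the 75th percentile over all miRNAs (1.46), without scaling (2.95), with only the 2 groups compared and by the unadjusted t-test (0.68), reversed with the total gene signal (-0.81) and normexp (-1.24), and was 0.51 to 0.82 with 1 array left out. At 14 DPI it was called without scaling (1.45) and reversed with the total gene signal (-0.84) and normexp (-0.89). At 3 DPI it reversed with the total gene signal (-0.22), normexp (-0.43), and in the processed table (-0.19), and was -0.10 to 0.35 with 1 array left out. Between time points it reversed with the total gene signal (-0.62 from 3 to 14 DPI and -0.59 from 3 to 42 DPI) and normexp (-0.46, -0.35, and -0.81 for 3 to 14, 14 to 42, and 3 to 42 DPI), and from 3 to 14 DPI was -0.060 to 0.48 with 1 array left out. miR-155-5p was called at 14 DPI in the processed table without a filter (-3.04, adjusted p = 0.00963). Its replicates 2 and 3 of 14 DPI were there at -3.32, the median of every column, and replicate 1 of sham was the mean of replicates 2 and 3.

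Of the other named miRNAs at 42 DPI, miR-125a-5p reversed on the percentile taken over all miRNAs (0.049) and without scaling (2.09), miR-142a-3p (-1.61) and miR-219a-2-3p (-0.090) with normexp, and miR-486a-5p on that percentile (0.013), without scaling (1.41), and in the processed table (3.94, with or without a filter). These settings moved the median of all miRNAs tested to 0.46 with that percentile, 1.76 without scaling, -1.67 with normexp, and 0.44 in the processed table, and against it miR-125a-5p was lower by 0.41 and higher by 0.34, miR-142a-3p higher by 0.06, miR-219a-2-3p higher by 1.58, and miR-486a-5p lower by 0.45 and 0.35 but higher by 3.50 in that table. Of the 12 fits with 1 array left out, calls were lost in 9 for miR-125b-5p, 8 for miR-101a-3p, 5 for miR-30e-5p, 4 each for miR-128-3p, miR-137-3p, and miR-219a-5p, and 2 for miR-27b-3p. For miR-142a-3p and miR-486a-5p, given as a description only, the adjusted p was no longer under 0.05 in 10 and 5. The causes of these shifts were not tested. On the sham arrays miRNAs below a scaled level of -3.66 to -4.64 could not be detected, which limits miR-146a-5p, miR-146b-5p, and miR-155-5p there.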

Other observations

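In the processed table that the authors deposited, miR-155-5p had values of 0.46 ± 0.05 in sham, -1.04 ± 0.02 at 3 DPI, -2.58 ± 1.28 at 14 DPI, and -1.40 ± 0.62 at 42 DPI (log2, mean ± SD, n = 3), although it was below background on all arrays of the first 3 groups. Replicate 1 of sham and replicate 1 of 3 DPI were there the mean of replicates 2 and 3. Replicates 2 and 3 of 14 DPI stood at -3.32. The SDs of these groups are thus not those of 3 measured values. The background-corrected intensities of miR-155-5p, which carry the rise in array brightness, were highest at 42 DPI. With 0.25 times the floor its scaled signal read -0.18, -0.67, and -0.40 at 3, 14, and 42 DPI against sham, none called. These readings compare signals below background on all arrays but replicate 1 of 42 DPI and are no measure of a change. miR-146a-5p, below background on all sham arrays, stood at -0.07 ± 0.03 in sham, 1.34 ± 0.07 at 3 DPI, 2.05 ± 0.27 at 14 DPI, and 3.22 ± 0.27 at 42 DPI in the same table. Its replicate 3 of sham, replicate 3 of 3 DPI, and replicate 1 of 14 DPI were there the mean of the other 2 of the group. miR-21a-3p was at -3.32 on all 12 arrays, which is the median of every column.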
